A study of Mus musculus with 12 samples.

Results

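The levels of 48 mouse genes of DNA replication and the G1/S transition were followed in brain cells sorted as microglia, the macrophages that live in brain tissue. These genes comprise the machinery that licenses, opens and copies DNA, the enzymes that supply its building blocks and the regulators that switch these genes on. The list of 48 was set by gene symbol and chosen with earlier results of these data known. A gene was read from its transcript cluster, the unit of the gene-level array table, where a cluster named that gene alone, which held for 43 of the 48. The other 5 (Pcna, Rrm2, Rfc2, Lig1 and Rpa3) were read as the median of their probesets, the short exon-level units. The gene-level table named 14847 genes by a single symbol. Levels are RMA values on the log2 scale, on which a difference of 1 is a doubling. Every comparison below sets 3 samples against 3, and SE is the moderated standard error of the difference.

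The groups were 3 samples labelled Lrrc33-/- (KO-labelled) and 3 samples labelled Lrrc33+/+ (WT), all from mice aged 3 weeks. Brain cells were sorted in both groups as CD45low, CD11b+, CD39+ and Ter119-, and Trizol RNA was hybridised to Affymetrix mouse exon arrays. Lrrc33, now Nrros, encodes a protein that holds latent TGF-beta1 on myeloid cells, and the comparison asks what its loss does to microglial RNA. The strain, the allele and the number of mice behind a sample are not stated in the labels. Spread between samples, some of which may be technical, is what the p-values rest on.

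Before a cell copies its DNA, the origin recognition complex, Cdc6 and Cdt1 load rings of MCM2 to MCM7 onto origins in G1 phase. Cyclin E with CDK2 and other kinases then start S phase: Cdc45 and the GINS complex join the rings to form the active helicase, and polymerases, clamp and ligase copy both strands. E2F transcription factors, held back by the retinoblastoma protein, drive many of these genes, so their RNA is a common measure of cells passing into S phase. Microglia renew themselves by local division, which is brisk in the young brain and slow in the adult.

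Nrros RNA was not lower in KO-labelled samples. It read 9.86, 9.89 and 9.83 in KO-labelled samples, against 9.94, 9.88 and 9.60 in WT, a difference of 0.05 (SE 0.09; limma, Benjamini-Hochberg adjusted p = 0.759). None of its 8 probesets passed the test (lowest adjusted p 0.31). The arrays thus give no RNA check of the genotype labels, since the deleted stretch, which the labels do not give, cannot be set against the probes. WT replicate 3 stood apart in sex-linked RNA, with the X-inactivation transcript Xist at 7.96, against 12.4 to 12.5 in KO-labelled samples and 12.2 to 12.3 in the other WT samples. The Y-linked genes Eif2s3y, Kdm5d and Uty read 7.89, 7.37 and 7.12 in WT replicate 3. Eif2s3y read 2.75 to 3.09 in KO-labelled samples and 3.01 and 2.98 in the other WT samples. By these RNAs WT replicate 3 was male or mostly male and the other samples female, so sex was not balanced between groups. The main counts are also given without WT replicate 3.

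Of 11 measured microglia markers, 8 fell and 0 rose in KO-labelled samples (limma, Benjamini-Hochberg; 0 were higher at an unadjusted p under 0.05). Their mean ran from 10.64 to 10.69 in KO-labelled samples and from 12.28 to 12.33 in WT. Sall1, a transcription factor gene that sets microglial identity, read 5.55, 5.46 and 5.48 in KO-labelled samples, against 11.3, 11.3 and 11.2 in WT, 55.2-fold lower. The microglial surface genes Tmem119 and Siglech were 11.7-fold and 8.99-fold lower, and Olfml3 was 5.89-fold lower. The smallest called fall was that of the growth factor receptor gene Csf1r (-0.24), and Aif1, C1qa and C1qb did not pass. These values go against the name microglia for the KO-labelled group, which is called here by its label, while WT samples were high in all 4 genes that fell most.

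RNA of the genes behind the sort markers differed between groups as well. Itgam, which encodes CD11b, was 3.51-fold lower in KO-labelled samples (log2 difference -1.81, SE 0.07; limma, Benjamini-Hochberg adjusted p = 5.54e-06). Ptprc (CD45) rose by 0.46 (adjusted p = 0.00308), and Entpd1 (CD39) fell by 0.36 (adjusted p = 0.00789). The part of these shifts in the replication genes was not tested.

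The promoters of these genes are shown first, since the genes moved together and many are textbook E2F targets. RefSeq promoters (GRCm38.p6, 250 bases before to 50 after each start) were listed for 40 of the 48 genes, as 48 entries where alternative starts are counted. They were searched on both strands for TTCCCGC, for TTGGCGC, for TTCGCGC and for TTGCCGC, forms of the E2F consensus core, with overlapping matches counted apart. At least 1 match stood in 31 of the 48 entries (64.6%), against 9.57% of all 32851 promoters in the table and 13.5% of 14768 promoters of protein-coding genes on the gene-level array. The CCAAT box, another element common in cell-cycle promoters, was found in 62.5% of the entries and in 37.4% of all promoters. These are descriptions of letters and not of bound sites. The 6 genes with at least 2 E2F-type matches in the 250 bases before the start are printed, each as 100 bases with the matches in capitals, 5′ to 3′ on the gene's own strand.
Cdk2 (chr10:128705136-128705235, minus strand): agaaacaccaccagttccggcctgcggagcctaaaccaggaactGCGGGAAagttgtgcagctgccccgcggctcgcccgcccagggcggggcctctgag
Chaf1a (chr17:56040296-56040395, plus strand): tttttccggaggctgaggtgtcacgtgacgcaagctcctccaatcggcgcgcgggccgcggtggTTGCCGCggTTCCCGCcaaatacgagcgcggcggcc
Dnmt1 (chr9:20952758-20952857, minus strand): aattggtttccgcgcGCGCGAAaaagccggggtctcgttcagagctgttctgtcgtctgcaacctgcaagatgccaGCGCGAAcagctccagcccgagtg
Mcm5 (chr8:75109306-75109405, plus strand): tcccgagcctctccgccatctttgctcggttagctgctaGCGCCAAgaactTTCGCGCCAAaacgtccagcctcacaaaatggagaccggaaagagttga
Mcm6 (chr1:128359728-128359827, minus strand): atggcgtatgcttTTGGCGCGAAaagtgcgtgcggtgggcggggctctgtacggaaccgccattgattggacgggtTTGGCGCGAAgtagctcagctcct
Pola1 (chrX:93632247-93632346, minus strand): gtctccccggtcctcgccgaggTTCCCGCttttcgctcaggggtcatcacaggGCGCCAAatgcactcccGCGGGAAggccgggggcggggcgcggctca
In Mcm6 both blocks of capitals are pairs of overlapping matches, which makes 4 in all, and in Mcm5 the longer block is such a pair. The window of Cdk2 holds 1 of its 2 matches. Dnmt1 has several listed starts, and its stretch lies before the start at 20952623 but after those at 20952979 and 20959888. The entries of those later-numbered starts hold 0 matches, and for them the stretch is not upstream sequence. Of these 6 genes, Pola1 and Mcm6 were among the 3 members with the largest rise, while Cdk2 did not pass the test. Promoters with a match made up 63.9% of 36 entries of members that rose and 66.7% of 6 entries of members measured at the gene level that did not pass.

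Most replication and G1/S genes were higher in KO-labelled samples. Of the 43 genes read at the gene level, 37 rose, 0 fell and 6 did not pass limma's test at a Benjamini-Hochberg adjusted p of 0.05. That is 86.0%, against 14.4% of all 16755 clusters called higher, and 14% of all clusters were called lower. Since the genes were chosen with earlier results of these data known, such contrasts with all clusters are descriptions. At an unadjusted p under 0.05, 0 of the 43 were lower. In those 37 genes every KO-labelled sample lay above every WT sample, an arrangement seen in 20.4% of all clusters. The median difference was 0.51, against -0.02 over all clusters, and 9 of the 43 (20.9%) were at least 2-fold higher, against 2.88% of all clusters.

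The samples within a group lay close together. The mean over the 43 genes was 7.04, 7.06 and 7.11 in KO-labelled samples, against 6.38, 6.42 and 6.39 in WT, which leaves 0.61 between the lowest KO-labelled and the highest WT sample. KO replicate 3 was the highest KO-labelled sample for 24 of the 43 genes. Without WT replicate 3, 35 of the 43 genes rose and the median difference was 0.54. These are bulk samples, in which more cells in the cycle and more of these RNAs per cell cannot be told apart.

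**Figure D1:**
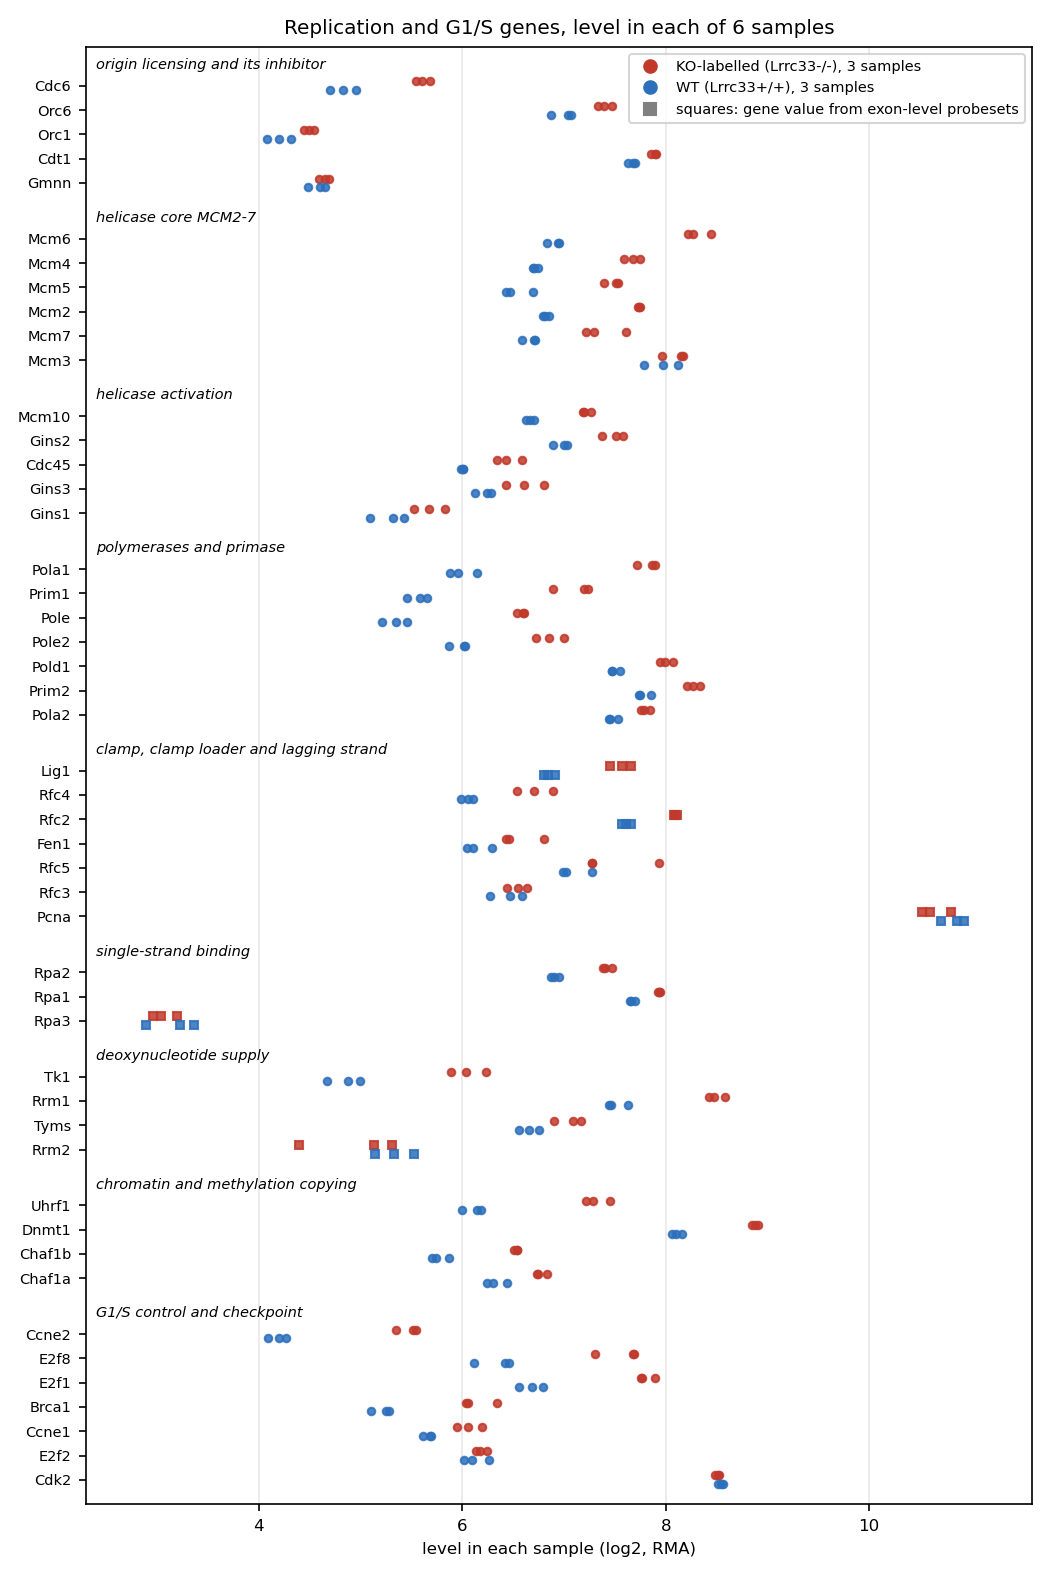
Level of each gene in each sample (log2, RMA), grouped by role and ordered by difference, with KO-labelled samples in red above WT samples in blue and squares for the 5 genes read from exon-level probesets. Red and blue points are separate for most genes and overlap for Gmnn, Mcm3, Rfc5, Rfc3, Pcna, Rpa3, Rrm2, E2f2 and Cdk2.

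Origin licensing genes rose by modest amounts, with 4 of 5 past the threshold. Cdc6, the loader that brings MCM rings to origins, had levels of 5.60, 5.68 and 5.55 in KO-labelled samples, against 4.70, 4.96 and 4.83 in WT. Its groups did not overlap, and it rose by 0.78 (SE 0.08; limma, Benjamini-Hochberg adjusted p = 0.000363). Orc6, a subunit of the origin recognition complex, read 7.34, 7.39 and 7.47 in KO-labelled samples and 6.87, 7.04 and 7.07 in WT, a rise of 0.40. Orc1, the largest subunit of that complex, rose by 0.29, with dim levels of 4.496, 4.55 and 4.44 in KO-labelled samples and 4.08, 4.20 and 4.31 in WT. Cdt1, the partner of Cdc6 in loading, rose by 0.22 and was 1.16-fold higher. The calls of Orc1 and Cdt1 depended on single samples. For Orc1 the call was lost when KO replicate 1 or 2 or WT replicate 1 or 2 was left out (adjusted p 0.0617 to 0.0638). For Cdt1 it was lost when WT replicate 2 was left out (adjusted p = 0.0639). Gmnn, which encodes geminin, the inhibitor that blocks Cdt1 after S phase has begun, did not pass. It read 4.59, 4.65 and 4.69 in KO-labelled samples, against 4.65, 4.60 and 4.48 in WT, with a difference of 0.07 (SE 0.06; adjusted p = 0.519). The cluster of Gmnn was dim too, at percentile 13.5 of the mean levels of all clusters. From exon-level probesets Gmnn differed by 0.26 and did not pass either (limma, adjusted p = 0.27).

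Among the 6 subunits of the replicative helicase ring, 5 rose together and Mcm3 did not. Mcm6 read 8.27, 8.22 and 8.45 in KO-labelled samples, against 6.95, 6.94 and 6.83 in WT, and was 2.64-fold higher (log2 difference 1.40, SE 0.08; limma, Benjamini-Hochberg adjusted p = 1.83e-05). Mcm4 read 7.67, 7.59 and 7.75 in KO-labelled samples, against 6.69, 6.74 and 6.70 in WT. Mcm5 read 7.39, 7.53 and 7.51 in KO-labelled samples, against 6.43, 6.70 and 6.47 in WT. These neighbours in size rose by 0.96 and 0.95, with no overlap between groups. Mcm2 read 7.73, 7.73 and 7.75 in KO-labelled samples, against 6.82, 6.79 and 6.85 in WT, a rise of 0.92 with the smallest error of the ring (SE 0.05). Mcm7 read 7.29, 7.22 and 7.61 in KO-labelled samples, against 6.70, 6.58 and 6.72 in WT, a rise of 0.70 (SE 0.11). Mcm3 was the exception, at 7.96, 8.16 and 8.15 in KO-labelled samples and 7.97, 8.12 and 7.79 in WT. Its groups overlapped, and with a difference of 0.13 (SE 0.10) Mcm3 was not called (limma, adjusted p = 0.403). At the exon level 0 of the 16 Mcm3 probesets passed, against 17 of 21 for Mcm6, and their differences ran only from -0.13 to 0.44.

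All 5 helicase activators rose, by 0.39 to 0.55. Mcm10, which helps to start the fork, read 7.26, 7.19 and 7.20 in KO-labelled samples, against 6.67, 6.63 and 6.70 in WT (rise 0.55, SE 0.05; limma, Benjamini-Hochberg adjusted p = 0.000252). Gins2, a GINS subunit, read 7.38, 7.51 and 7.58 in KO-labelled samples, against 6.90, 7.0 and 7.03 in WT. Cdc45, the factor that joins GINS and the ring, read 6.43, 6.59 and 6.34 in KO-labelled samples, against 6.01, 5.99 and 6.01 in WT. They rose by 0.51 and 0.45, again without overlap. The other GINS subunits, Gins1 and Gins3, rose by 0.39 and 0.40 and passed less firmly. The call of Gins1 was lost when KO replicate 1 or 3 or WT replicate 2 or 3 was left out (adjusted p 0.0767 to 0.108), and that of Gins3 when KO replicate 2 or WT replicate 1 or 2 was left out (adjusted p 0.058 to 0.0779).

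Polymerase and primase genes held the largest rises among the 48, in Pola1 and Prim1, and all 7 passed. Pola1, the catalytic subunit of the polymerase that lays down each new primer with primase, read 7.86, 7.71 and 7.90 in KO-labelled samples, against 5.88, 5.96 and 6.14 in WT. This was 3.56-fold higher (log2 difference 1.83, SE 0.09; limma, Benjamini-Hochberg adjusted p = 1.01e-05), at percentile 99.0 of the differences of all clusters. Prim1, the catalytic primase subunit, read 7.20, 6.89 and 7.24 in KO-labelled samples and 5.58, 5.66 and 5.46 in WT, 2.92-fold higher. Their partner subunits rose less, Prim2 by 0.49 (SE 0.06) and Pola2 by 0.32 (SE 0.05), although the 4 proteins work as 1 complex. A similar split was seen in the leading-strand polymerase. Its catalytic subunit Pole read 6.54, 6.59 and 6.61 in KO-labelled samples, against 5.22, 5.46 and 5.35 in WT, a rise of 1.24. Its second subunit Pole2 rose by 0.89 (SE 0.08). Pold1, the catalytic subunit of the lagging-strand polymerase, rose by 0.51 (SE 0.06). Whether the subunits of a complex differ from each other was not tested.

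**Figure D2:**
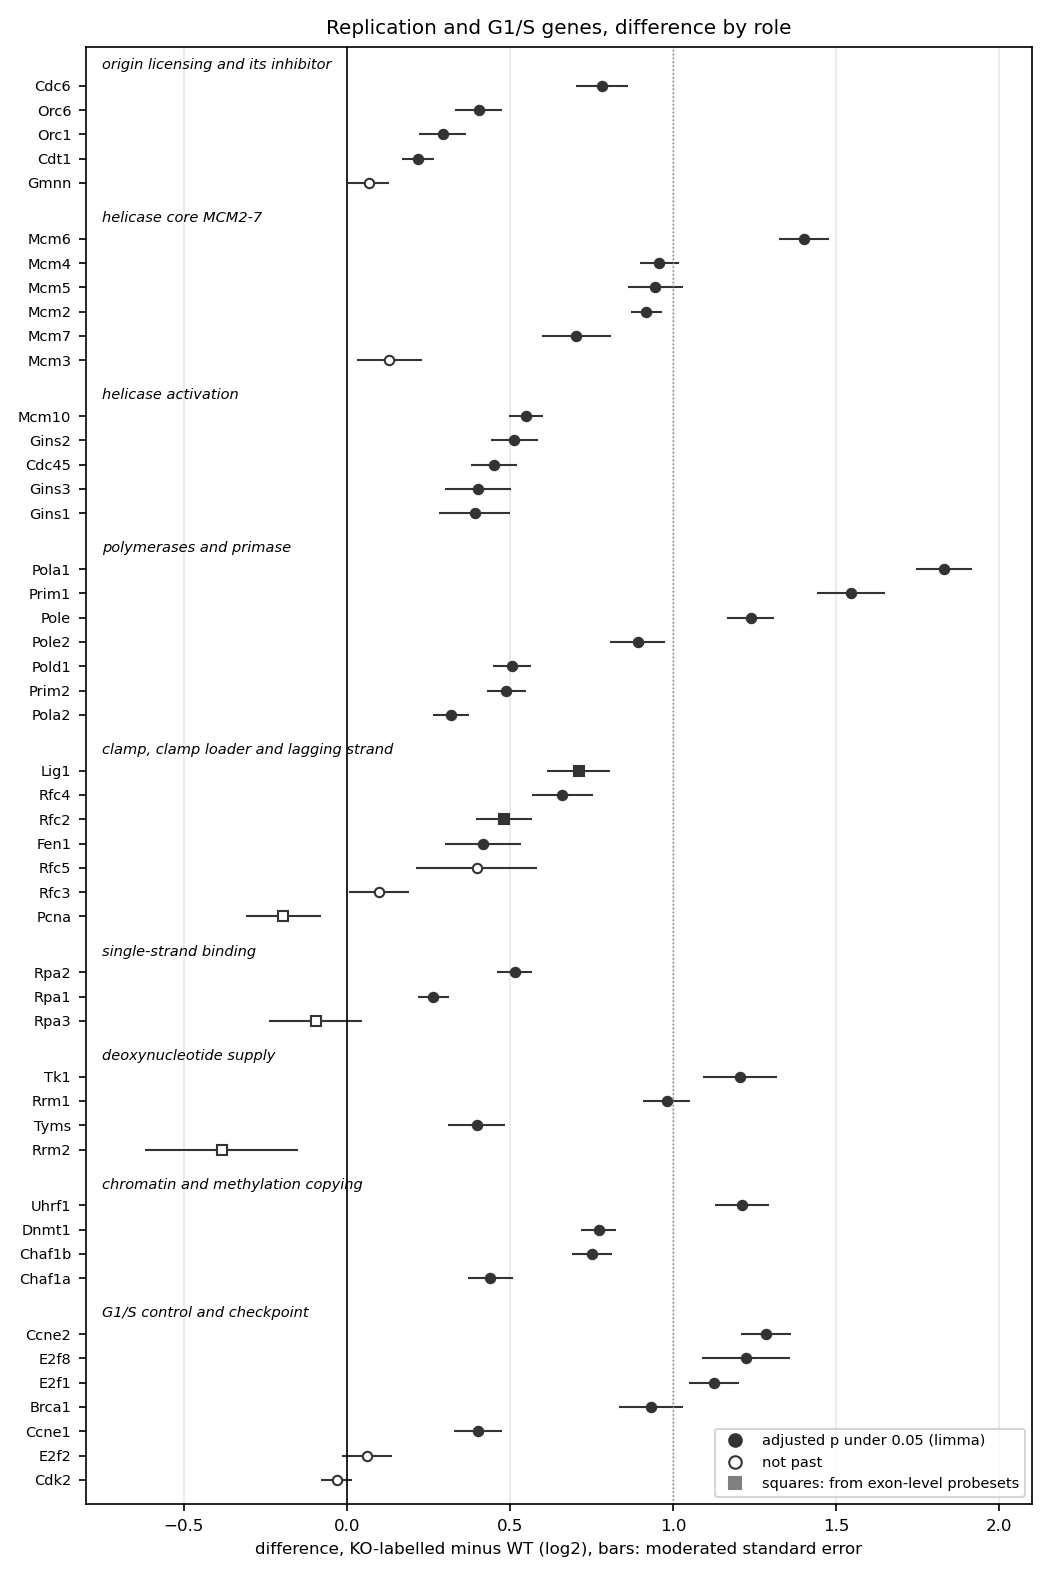
Difference of each gene, KO-labelled minus WT (log2), with its moderated standard error, grouped by role, with filled symbols for an adjusted p under 0.05 and squares for genes read from exon-level probesets. Pola1 (1.83), Prim1 (1.54) and Mcm6 (1.40) lie farthest right, and the open symbols gather around 0 apart from Rfc5, Rrm2 and Pcna.

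The clamp, its loader and the lagging-strand enzymes gave the most uneven picture, with 4 of 7 past the threshold. Lig1, the ligase that seals lagging-strand fragments, was read from 34 probesets and stood at 7.45, 7.66 and 7.57 in KO-labelled samples, against 6.80, 6.84 and 6.91 in WT. It rose by 0.71 (SE 0.10; limma on exon-level gene medians, Benjamini-Hochberg adjusted p = 0.00218). Clamp loader subunits Rfc4 and Rfc2 rose by 0.66 (SE 0.09) and 0.48 (SE 0.09), Rfc4 with 6.70, 6.54 and 6.89 in KO-labelled samples and 5.99, 6.10 and 6.06 in WT. Rfc2, from exon-level probesets, read 8.08, 8.09 and 8.11 in KO-labelled samples and 7.61, 7.65 and 7.57 in WT.

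Rfc5 and Rfc3 of the same loader did not pass. Rfc5 read 7.27, 7.93 and 7.27 in KO-labelled samples, against 7.28, 6.99 and 7.02 in WT, so that KO replicate 2 alone stood clear of WT (difference 0.40, SE 0.19; adjusted p = 0.172). From exon-level probesets Rfc5 was called higher (0.60, adjusted p = 0.00771). Rfc3 overlapped in part, with 6.55, 6.44 and 6.63 in KO-labelled samples and 6.47, 6.27 and 6.58 in WT. Fen1, the flap nuclease that trims these fragments, read 6.80, 6.43 and 6.46 in KO-labelled samples, against 6.10, 6.29 and 6.05 in WT. Fen1 rose by 0.42 (SE 0.12; limma, adjusted p = 0.0351), while its exon-level value was -0.08 (adjusted p = 0.676). The median difference of its 5 probesets was 0.27, with 3 above 0. The call of Fen1 was also lost when KO replicate 1 or WT replicate 1 or 3 was left out (adjusted p 0.0628 to 0.103).

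Pcna, the sliding clamp and a widely used proliferation marker, was not higher. Its exon-level gene value was 10.80, 10.52 and 10.60 in KO-labelled samples, against 10.86, 10.71 and 10.93 in WT, with a difference of -0.19 (SE 0.11; limma, Benjamini-Hochberg adjusted p = 0.328). Differences of all 15 Pcna probesets lay below 0, between -0.67 and -0.07, and 0 passed on their own. The KO-labelled and WT samples overlapped, with KO replicate 1 inside the WT range.

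Of the single-strand binding complex RPA, which coats unwound DNA, Rpa2 and Rpa1 rose by 0.51 and 0.26. Rpa2 read 7.38, 7.41 and 7.47 in KO-labelled samples, against 6.90, 6.87 and 6.95 in WT. Rpa1 read 7.93, 7.94 and 7.94 in KO-labelled samples, against 7.65, 7.70 and 7.66 in WT. Both were thus separate between groups by more than the spread within them. Rpa3 rested on 2 dim probesets, at 2.96, 3.04 and 3.20 in KO-labelled samples and 3.37, 2.89 and 3.22 in WT, both far below the median of all probesets, 5.81 (difference -0.10, adjusted p = 0.727).

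Genes of deoxynucleotide supply rose in 3 of 4 cases. Tk1, the thymidine kinase of S phase, read 5.89, 6.03 and 6.23 in KO-labelled samples, against 4.67, 4.99 and 4.88 in WT, 2.31-fold higher (log2 difference 1.21, SE 0.11; limma, Benjamini-Hochberg adjusted p = 0.000249). Rrm1, the large subunit of ribonucleotide reductase, read 8.43, 8.47 and 8.58 in KO-labelled samples, against 7.45, 7.63 and 7.46 in WT, a rise of 0.98. Tyms, thymidylate synthase, read 7.09, 7.17 and 6.90 in KO-labelled samples, against 6.56, 6.75 and 6.65 in WT, a rise of 0.40. From 16 exon-level probesets Tyms rose by 0.86, more than 1.5 times as much, and a further cluster that names Tyms together with its pseudogene was not used. Rrm2, the S-phase subunit of the reductase, had 1 probeset with that symbol alone. It read 4.40, 5.31 and 5.14 in KO-labelled samples, against 5.53, 5.14 and 5.33 in WT (-0.38, SE 0.23; adjusted p = 0.346), and Rrm2 thus rests on a single dim probeset.

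All 4 genes that copy chromatin and DNA methylation onto new strands rose. Uhrf1, which reads half-methylated DNA behind the fork, stood at 7.29, 7.22 and 7.46 in KO-labelled samples, against 6.14, 6.19 and 6.00 in WT, 2.32-fold higher (log2 difference 1.21, SE 0.08; limma, Benjamini-Hochberg adjusted p = 5.26e-05). Dnmt1, the maintenance methyltransferase that UHRF1 recruits, read 8.87, 8.91 and 8.85 in KO-labelled samples, against 8.16, 8.10 and 8.06 in WT, a rise of 0.77. Each of its 48 probesets had a difference above 0. Chaf1b and Chaf1a, subunits of the histone chaperone CAF-1, rose by 0.75 and 0.44. Chaf1b read 6.51, 6.54 and 6.53 in KO-labelled samples and 5.70, 5.87 and 5.75 in WT.

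Regulators of G1/S differed from each other. Ccne2, a cyclin E, read 5.55, 5.35 and 5.52 in KO-labelled samples, against 4.20, 4.27 and 4.09 in WT, 2.44-fold higher (log2 difference 1.29, SE 0.08; limma, Benjamini-Hochberg adjusted p = 2.91e-05). E2f8, an atypical E2F that represses replication genes, read 7.30, 7.68 and 7.69 in KO-labelled samples, against 6.12, 6.42 and 6.46 in WT, a rise of 1.22. E2f1, an activating E2F, read 7.76, 7.89 and 7.77 in KO-labelled samples, against 6.79, 6.56 and 6.69 in WT, a rise of 1.13. An activator and a repressor of the family thus rose side by side. Read as the median level of its exon-level probesets, E2f1 rose by 0.51, less than its gene-level value. The median difference of its 13 probesets was 1.01, with 12 above 0. Brca1, a repair and checkpoint gene active in S phase, rose by 0.93, and the other cyclin E gene, Ccne1, by 0.40 (SE 0.07). Ccne1 missed the threshold from exon-level probesets (0.35, adjusted p = 0.122).

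E2f2 and Cdk2 did not pass. E2f2, an activator like E2f1, read 6.14, 6.17 and 6.25 in KO-labelled samples, against 6.09, 6.27 and 6.02 in WT (0.06, adjusted p = 0.631). Cdk2, the kinase partner of cyclin E, read 8.53, 8.51 and 8.48 in KO-labelled samples, against 8.54, 8.56 and 8.52 in WT (-0.03, SE 0.05; adjusted p = 0.702). Cdk2 stood at percentile 80.2 of the mean levels of all clusters, and 0 of its 18 probesets passed.

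At the exon level, with all 48 genes read as medians of their probesets, 34 rose (70.8%), 0 fell and 14 did not pass, against 8.38% of 22184 genes called higher and 7.53% called lower. At an unadjusted p under 0.05, 0 of the 48 were lower. Both levels come from the same hybridisations and are not independent. Of the 43 genes with a cluster, 31 were called higher at both levels, 6 at the gene level alone (Cdt1, Gins2, Prim2, Fen1, Rpa1 and Ccne1) and 1 at the exon level alone (Rfc5).

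Most single probesets of the members had a difference above 0, but the probesets of a gene did not all change alike. Of 931 member probesets, 816 (87.6%) had a difference above 0, 326 were called higher and 1 was called lower. Of all 1236087 probesets, 2.59% were called higher and 2.16% lower. Most probesets in that total (907200) carry no gene symbol, whereas each member probeset names its gene alone. The 2 sets are thus unlike, and the shares are not a matched background. The share above 0 among all probesets is not given here. Pola1 had the largest share of probesets called higher, 36 of 38, with differences from 0.50 to 2.86. The single probeset called lower was in Mcm6, at -1.55, beside 17 that were called higher. Gmnn, which was not called as a gene, had 2 of 14 probesets called higher.

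The diffSplice test of limma asks whether the probesets of a gene differ from each other in their change. This test called 35 of the 46 members with enough probesets (76.1%), against 31.5% of all 16725 genes tested. Among genes called higher at the gene level, however, the share was 59.9%, and 19.6% among genes that did not pass there. The share of members is therefore read beside 59.9%. Among the members that were not called, Mcm3 (adjusted p = 0.885), Cdk2 (0.291), E2f2 (0.990), Pcna (0.523) and Rfc3 (0.467) did not pass in level either. The others not called, Cdt1, Gins1, Gins2, Orc1, Orc6 and Rpa1, were higher in level. Gmnn (diffSplice adjusted p = 0.016) and Rfc5 (3.68e-09) were called, though they did not pass in level. No statement on splice forms is drawn.

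**Figure D3:**
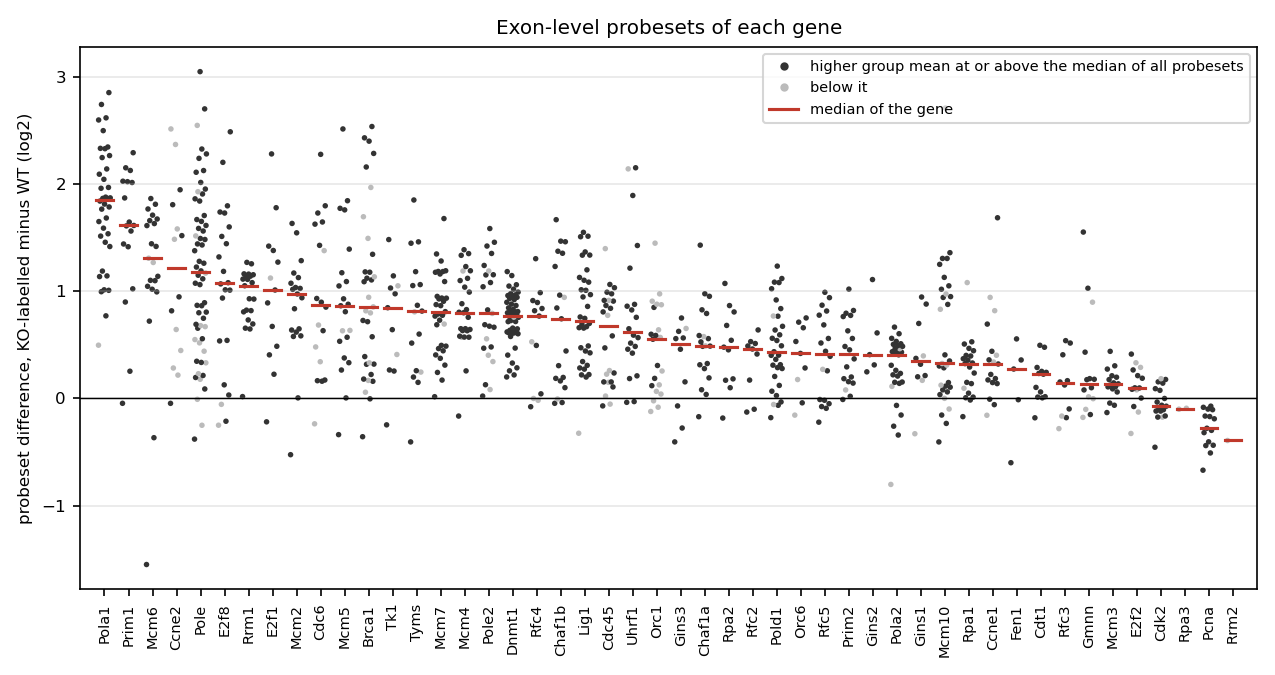
Difference of every exon-level probeset of each gene, KO-labelled minus WT (log2), with genes ordered by their median (red line). Probesets in black reach the median of all probesets in their higher group and grey ones do not, and most points lie above 0, while all 15 of Pcna lie below it.

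Other replication genes, not on the list of 48, were read from 5 further lists. Of 78 measured genes, 47 rose, 5 fell and 26 did not pass, with a median difference of 0.33. Over all 16755 clusters 14.4% were called higher and 14% lower. No test set these lists against the 48 genes. Among origin-firing and licensing factors, 9 of 16 rose and 2 fell (Donson, by 0.35, and Orc2, by 0.25). Dtl, which marks Cdt1 for destruction in S phase, rose by 0.97, the kinase gene Cdc7, which fires origins, by 0.91 and the firing factor Ticrr by 0.61, and Topbp1 rose by 0.56. Of the other fork and polymerase genes 13 of 17 rose and 0 fell (1 was lower at an unadjusted p under 0.05 in limma), led by Wdhd1 (1.07), which tethers polymerase alpha to the fork, the fork protection gene Tipin (0.89), its partner Clspn (0.64) and the clamp loading gene Dscc1 (0.51).

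Replication-coupled repair genes rose in 11 of 13 cases, with 0 lower by limma, also at an unadjusted p under 0.05. The helicase gene Brip1 rose by 1.34, the recombination gene Rad54l by 1.06, and Brca2 and its partner Palb2 by 0.94 and 0.85. Of G1/S regulators and other E2F targets, 9 of 20 rose and 2 fell (Cdca7, by 0.57, and Cdc25a, by 0.35). Cyclin A (Ccna2) rose by 1.92, the chromatin remodeller Hells by 1.27, Fbxo5, an inhibitor of the anaphase-promoting complex, by 1.25 and the histone chaperone gene Asf1b by 1.12.

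Nucleotide synthesis outside the list was divided, with 5 of 12 higher and 1 lower. Dck, a salvage kinase, rose by 1.09, Samhd1, which breaks deoxynucleotides down, by 0.91, and Dtymk by 0.44, while Ctps, which makes CTP, fell by 0.45. Genes of mitosis and G2/M, a later phase of the same cycle, had larger values, with 18 of 19 higher and a median difference of 1.24, led by Mki67 at 2.45. No test of the difference between the S-phase and G2/M lists was made.

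**Figure D4:**
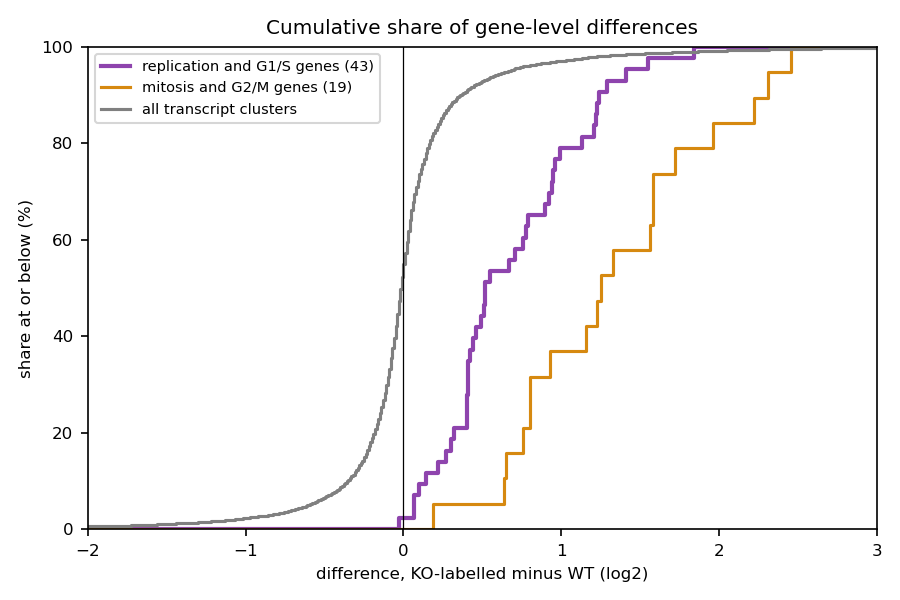
Share of genes at or below each difference (KO-labelled minus WT, log2) for the 43 replication and G1/S genes, 19 mitosis and G2/M genes and all 16755 transcript clusters at the gene level. The replication curve lies right of the curve of all clusters, with a median of 0.51 against -0.02, and the mitosis curve lies farther right, with a median of 1.24.

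Markers of other cells were read beside these values. Border-associated macrophages line brain vessels and meninges, and 7 of their 8 measured markers rose, with Clec4n 18.5-fold, Pf4 9.33-fold, Siglec1 6.27-fold and Cd163 6.02-fold higher. Their mean ran from 11.2 to 11.3 in KO-labelled samples and from 8.87 to 9.02 in WT, and Lyve1 alone did not pass. The part of this shift in the replication genes was not tested. Lymphocyte and oligodendrocyte lineage markers had 0 of 7 and 0 of 8 members past limma's threshold. At an unadjusted p under 0.05, 2 lymphocyte and 0 oligodendrocyte lineage markers were higher and 0 of either list were lower. The part of other dividing cells in the replication genes was not tested. The oligodendrocyte mean was 6.50, 6.64 and 6.44 in KO-labelled samples, against 6.48, 6.50 and 6.60 in WT. Of 5 erythroid markers 1 rose, Epor (1.73), and the red cell gene Slc4a1 differed by 0.04. The erythroid mean was 5.96, 5.98 and 5.82 in KO-labelled samples, against 5.56, 5.61 and 5.54 in WT. Monocyte markers were lower in 4 of 6 cases and neutrophil markers in 1 of 10 (Csf3r), with 0 higher in either list, also at an unadjusted p under 0.05. The neutrophil mean spread widely within groups, from 6.40 to 7.56 in KO-labelled samples and from 7.23 to 8.31 in WT. Among astrocyte markers 1 of 6 fell (Slc1a3), among endothelial markers 2 of 7 (Pecam1 and Kdr), and among neuron markers 0 of 7 passed, with 2 higher at an unadjusted p under 0.05. Over all clusters 14.4% were called higher and 14% lower. The erythroid, neutrophil, astrocyte and endothelial counts are too small to be told from those shares.

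**Figure D5:**
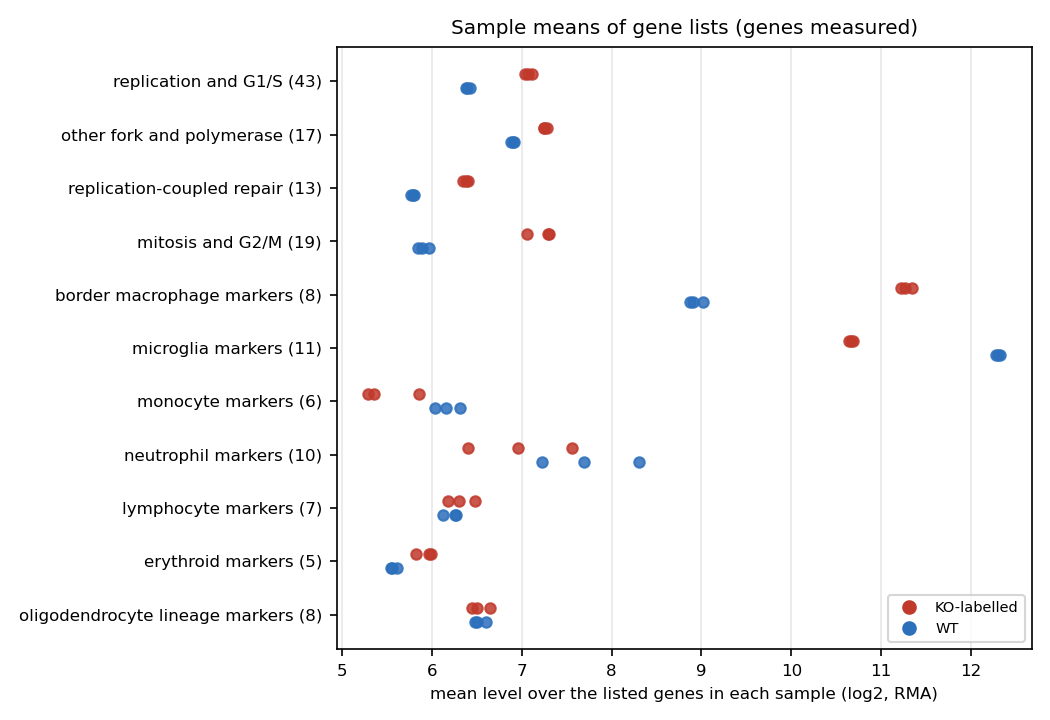
Mean level over the measured genes of each list in each sample (log2, RMA), with KO-labelled samples in red above WT samples in blue. Replication, repair and mitosis lists, border macrophage markers and erythroid markers lie higher in every KO-labelled sample. Microglia and monocyte markers lie lower, and neutrophil, lymphocyte and oligodendrocyte markers overlap.

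Several of these genes share their promoter region with a neighbour that runs the other way, which allows a comparison of genes only bases apart. RefSeq held 9 such pairs within 1000 bases, and 7 of the neighbours had a cluster. Of the 7 neighbours 2 rose, 0 fell and 5 did not pass, and over all clusters 14.4% were called higher and 14% lower. So few neighbours cannot be told from those shares. Their partners (Brca1, Cdc45, Fen1, Mcm7, Orc1, Rpa1 and Tk1) are all among the genes called higher. Tk1 and Fen1 overlap their neighbours at the start, while the other pairs run head to head. Brca1 rose by 0.93, and Nbr1, an autophagy receptor gene that starts 152 bases away on the other strand, differed by 0.12 (SE 0.06; limma, Benjamini-Hochberg adjusted p = 0.209). Tk1 rose by 1.21, and Afmid, an enzyme gene of tryptophan breakdown, starting 95 bases away, by contrast stood at -0.05 (SE 0.13; adjusted p = 0.848). Mcm7 differed from these pairs in that its neighbour Ap4m1, an adaptor gene of vesicle traffic 138 bases away, rose as well, by 0.46 against 0.70 for Mcm7. Fen1 and its neighbour Tmem258 rose by 0.42 and 0.28. Whether the 2 genes of a pair differ was not tested.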

How the data were processed

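RNA of cells sorted as microglia was measured on 1-channel Affymetrix mouse exon arrays, 3 samples labelled Lrrc33-/- and 3 labelled Lrrc33+/+. The deposited files hold log2 values. The submitters' processing notes name RMA for both levels, with oligo and limma for the exon level. Their versions and genome build: not given in the sources used here. The number of arrays limits the precision, and background and summarisation by RMA can compress differences of dim genes.

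Members and lists were chosen with earlier results of these data known. Symbols of the platform annotation were updated through RefSeq (GRCm38.p6). At the gene level 14996 of 16755 clusters had 1 symbol, 1019 several and 740 none. At the exon level 321091 of 1236087 probesets had 1, 7796 several and 907200 none. Where a gene had several clusters, the brightest was used.

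Differences (KO-labelled minus WT) were tested over all features with limma 3.58.1 in R 4.3.3 (lmFit, eBayes, two-sided, no covariate) and Benjamini-Hochberg adjustment, threshold 0.05. SE is the moderated standard error. diffSplice used probesets whose higher group mean reached the median of all probesets, at least 3 per gene. The code was tested on simulated data. Values in every sample are given for all MCM2 to MCM7 genes, for up to 3 members a role with the largest rise, and for members that did not pass. From each other list up to 4 genes with the largest change could be named. Csf1r, Aif1, C1qa, C1qb, Lyve1, Slc4a1, neighbour genes and genes that fell in replication lists outside this rule were named after their values were seen. The same holds for P2ry12, Cx3cr1 and Fcrls. Fitted differences of the same arrays at both levels are not independent: deviations from group means correlated at r = 0.514 to 0.586 between a sample's own columns and at most 0.0484 otherwise, over 14690 genes. Replicate numbers did not pair the samples, with correlations of -0.0293, -0.00706 and 0.0393 between same-numbered samples.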

Additional observations from a re-analysis of the deposited data

How the results depend on the processing

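The 37 of 43 genes called higher became 33 to 36 when single samples were left out, 35 with a replicate block, 36 after a second quantile normalization or centring of arrays, 37 with an intensity trend, array weights or the mean of a gene's clusters, and 32 from exon-level values. Without the dimmer clusters 24 were called, since fewer genes were then tested. The count of lower genes was 0 in each. The median difference of 0.51 ran from 0.508 to 0.54 without single samples and was 0.662 from exon-level probesets, of which the cause was not tested. In the lists of other replication genes, 47 higher became 40 to 45 without single samples, and the 5 lower became 3 to 4 without single samples (3 without WT replicate 1 or 2) and 3 from exon-level values. At the exon level the 34 genes called became 30 to 33 without single samples and 31 with the block, and the 35 diffSplice calls became 32 to 35 and 33. Replicate numbers did not pair the samples, and the block ended the calls of Cdt1 (adjusted p = 0.0504) and Fen1 (0.0569).

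Of the 39 genes called at the level each was read from (37 from clusters and 2 from probesets), 30 kept the call under every alternative run and 9 lost it at least once (Ccne1, Cdt1, Fen1, Gins1, Gins2, Gins3, Orc1, Prim2 and Rpa1). Signs turned for Fen1 (-0.0844) and Cdk2 (0.13) from exon-level values, which are medians of probeset levels, and neither was called there. The median of the probeset differences kept the gene-level sign, at 0.27 for Fen1 and -0.07 for Cdk2. Rpa3 ran from -0.23 to 0.0073 and Nrros from -0.0532 (without WT replicate 3) to 0.12 without single samples. Promoters with an E2F-type match made up 45.8% with only the 250 bases before the start, since the window is shorter, and a limit of 300 bases left 8 of 9 neighbour pairs. Small differences of dim genes are limited by signal near background.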
